A study of Mus musculus with 12 samples.

Results

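The response of BV2 cells to lipopolysaccharide (LPS, a component of the outer membrane of Gram-negative bacteria) was examined in the presence of curcumin, a polyphenol from turmeric. BV2 cells are mouse microglia, a type of brain macrophage, made immortal for culture. By their treatment labels, 3 arrays of cells given 100 ng/ml LPS and 20 µM curcumin together were compared with 3 arrays of cells given 20 µM curcumin alone, which makes 6 of the 12 arrays of the series. The other 6 arrays hold 3 untreated cultures and 3 given 100 ng/ml LPS alone, and they supply the LPS response without curcumin against which the response with curcumin was set. Treatments lasted 6 h. The labels give no time for the untreated cells, no vehicle and no statement that replicates came from separate cultures. All groups share 1 cell line, so p-values measure the spread between these samples, which may be technical.

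LPS is recognised by Toll-like receptor 4 together with Cd14 and Ly96. Signalling through the adaptor Myd88 activates NF-kB and the MAP kinases and induces inflammatory cytokines, chemokines and the inhibitors that later dampen NF-kB. Signalling through the adaptor Ticam1 activates Irf3 and induces interferon beta, which acts back on the cell to raise a second, interferon-stimulated set of genes. In microglia these programmes govern the recruitment of leukocytes and defence against microbes.

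One array of the combined treatment stood apart. Levels are given throughout as log2 processed signal minus the 75th percentile of the same array, so that a difference of 1 is a 2-fold difference. Replicates share their number with the slide, and each slide holds 1 array of each group in a fixed position, so group and position on the slide cannot be told apart. Over all tested genes, LPS+curcumin replicate 1 correlated on average at 0.982 with the LPS arrays but at 0.950 with the curcumin arrays, whereas replicates 2 and 3 correlated at 0.984 and 0.985 with the curcumin arrays and at 0.940 and 0.922 with the LPS arrays. The 2833 genes that were at least 2-fold higher with curcumin alone than in untreated cells were a median 0.38 higher in LPS+curcumin than in LPS on slide 1, against 1.90 on slide 2 and 2.11 on slide 3. Heme oxygenase Hmox1, a stress enzyme, was nevertheless high on that array, at 8.56, beside 8.95 and 9.05 in its group and 5.85, 5.29 and 5.68 in the LPS arrays. Each result below is therefore given with all 12 arrays and without LPS+curcumin replicate 1 ("without replicate 1"), and the cause of the difference between the arrays was not tested. LPS+curcumin replicate 2 had 1594 outlier spots, against at most 163 on any other array, and those spots were left out. All 9 microglia and macrophage markers on the array were well above background in both groups. The summed linear level of those markers was 140 to 196 with LPS and curcumin and 149 to 216 with curcumin. Of 5 markers each, astrocytes had 0 that were well above background on all 3 arrays of either group, neurons 2 in both, fibroblasts 1 in both and lymphocytes 3 in both, while oligodendrocytes had 4 with curcumin and 3 with LPS and curcumin and endothelial cells 2 and 1.

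Of 19323 genes and transcripts tested, 39 were higher in LPS+curcumin than in curcumin with all arrays (0.202% of those tested) and 2 were lower (0.0104%), by limma at an adjusted p below 0.05. Without LPS+curcumin replicate 1, 59 were higher (0.305%) and 8 were lower (0.0414%), and 38 of the higher genes were found in both fits. A symbol was available for 29 of the 39 and for 46 of the 59. With the slide as a block, 62 were higher (0.321%) and 6 lower (0.0311%), and 110 (0.569%) and 11 (0.0569%) without replicate 1. Scaling each array to its spike-in probes left 19 higher with all arrays and 38 without that replicate, and 17 and 25 genes were higher on every scaling tried. Spike-in scaling moved the median difference of all genes from 0.03 to -0.23 in the fit without that replicate.

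Genes that LPS raised in the absence of curcumin had, on the median, a far smaller difference in its presence. LPS alone raised 717 genes at least 2-fold (3.71% of those tested). Their median response was 2.38 without curcumin and 0.57 with it, while the median difference of all genes with curcumin was -0.09. Of the 717, 36 (5.02%) passed the test in LPS+curcumin versus curcumin, and 593 had a difference of the same sign. The difference with curcumin was at least 50% of the log2 response without it for 155 genes and below 25% for 366. Without LPS+curcumin replicate 1 the shared spread was smaller and 923 genes counted as raised by LPS (4.78%). Of these, 50 (5.42%) were also higher with LPS in curcumin and 1, Trim12c, was lower. The 50 include Hspa1a, well above background on 0 untreated and 0 LPS arrays, and Il19, on 0 untreated arrays and 1 LPS array. For both, the response to LPS alone rests on signals at background. The medians of the 923 genes were 2.03 without curcumin and 0.32 with it, beside 0.03 for all genes, and 132 genes kept at least 50% of their log2 response.

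The median response of the 717 genes with curcumin was 0.99 on slide 1, 0.31 on slide 2 and 0.43 on slide 3, while without curcumin it was 2.54, 2.36 and 2.20. The share at least 2-fold higher with LPS in curcumin was 49.8%, 20.9% and 21.2% on the 3 slides, against 7.27%, 2.11% and 2.82% of all genes. Slide 1, which holds the array that stood apart, was thus the slide with the highest share, and the remaining slides were close to each other. The test of the difference between both responses called 137 of the 717 genes smaller with curcumin (19.1%) and 0 larger, with 527 and 2 at an unadjusted p below 0.05. Over all tested genes that test called 137 smaller (0.709%) and 4 larger (0.0207%). Without replicate 1 it called 383 of 923 smaller (41.5%), against 395 of all genes smaller (2.04%) and 42 larger (0.217%). LPS minus untreated both chose these genes and enters that test, so these shares are a description.

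**Figure D1:**
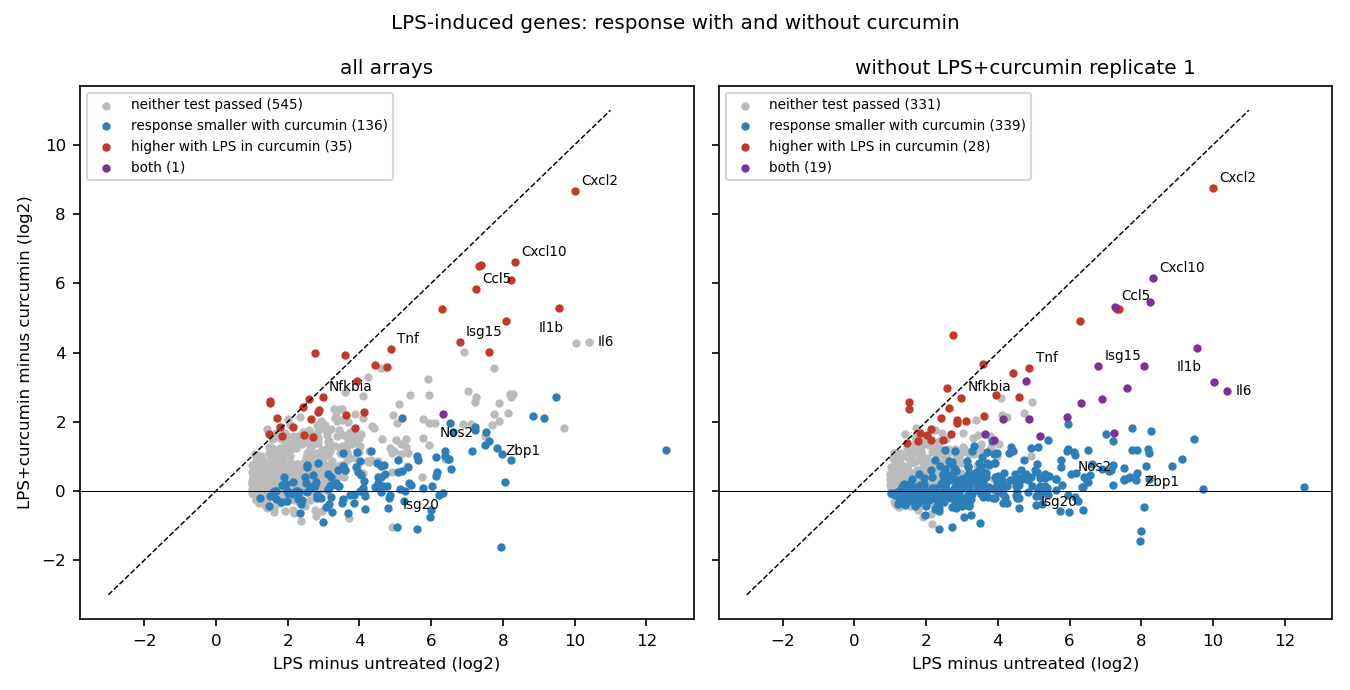
Difference between LPS+curcumin and curcumin (vertical axis, log2) against the difference between LPS and untreated (horizontal axis, log2) for the 717 genes raised by LPS alone, with all arrays (left) and without LPS+curcumin replicate 1 (right). Each point is 1 gene, coloured by which test it passed, and the dashed line marks equal responses. The median gene lies at 2.38 on the horizontal axis and at 0.57 on the vertical axis with all arrays, while Cxcl2, Cxcl10 and Ccl5 lie high on both.

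Promoters are shown for LPS-induced genes that were well above background on at least 2 arrays of all 4 groups and that the RefSeq promoter table used here holds. Among these, Cxcl10 and Isg15 had the smallest p for a response with curcumin, and Apol9b and Xaf1 the smallest p for a smaller response with curcumin, in the fit without replicate 1. They are the 250 bases upstream of the RefSeq start in GRCm38.p6, written 5′ to 3′ on the strand of the gene. Capitals mark matches, on either strand, to an interferon response element core (GAAA and GAAA parted by any 2 bases), an NF-kB motif (GGG and CC parted by any 5 bases) or an AP-1 motif (TGANTCA). Cxcl10 lies at chr5:92348890-92349139 (minus strand), Isg15 at chr4:156200819-156201068 (minus strand), Apol9b at chr15:77728822-77729071 (plus strand) and Xaf1 at chr11:72301379-72301628 (plus strand).
Cxcl10: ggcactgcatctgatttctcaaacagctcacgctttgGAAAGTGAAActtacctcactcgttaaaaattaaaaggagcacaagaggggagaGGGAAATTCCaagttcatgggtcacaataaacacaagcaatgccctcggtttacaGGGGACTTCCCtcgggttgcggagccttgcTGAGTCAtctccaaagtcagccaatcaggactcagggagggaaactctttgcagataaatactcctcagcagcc
Isg15: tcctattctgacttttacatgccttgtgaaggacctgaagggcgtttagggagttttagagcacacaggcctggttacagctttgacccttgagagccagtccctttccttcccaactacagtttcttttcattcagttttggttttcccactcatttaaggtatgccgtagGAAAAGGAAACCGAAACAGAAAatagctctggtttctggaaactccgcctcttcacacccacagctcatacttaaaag
Apol9b: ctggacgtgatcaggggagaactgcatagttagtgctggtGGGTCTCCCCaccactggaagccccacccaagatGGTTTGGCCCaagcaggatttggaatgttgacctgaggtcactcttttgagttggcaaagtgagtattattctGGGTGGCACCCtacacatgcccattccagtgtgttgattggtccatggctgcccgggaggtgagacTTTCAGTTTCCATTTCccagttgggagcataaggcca
Xaf1: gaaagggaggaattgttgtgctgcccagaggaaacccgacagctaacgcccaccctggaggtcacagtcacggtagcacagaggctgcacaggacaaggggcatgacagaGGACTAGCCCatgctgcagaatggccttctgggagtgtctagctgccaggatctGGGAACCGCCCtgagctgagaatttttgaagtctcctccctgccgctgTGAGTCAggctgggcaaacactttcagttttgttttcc
The Cxcl10 window held 1 match to the interferon core, 3 to the NF-kB motif, some of them overlapping, and 1 to the AP-1 motif. Isg15 held 3 overlapping interferon cores. Apol9b held 2 interferon cores and 4 NF-kB matches, and Xaf1 held 3 NF-kB matches and 1 AP-1 match. The interferon core was present in 19.4% of 36 promoters of genes higher with LPS in curcumin and in 18.9% of 212 promoters of LPS-raised genes with a smaller response and no call of their own, against 3.04% of all 27025 RefSeq promoters of this length and 2.74% of 10182 of tested genes. The NF-kB motif was in 66.7% and 52.4% of the same sets, against 45.4% of all promoters and 59.6% of tested genes. The AP-1 motif was in 22.2% and 12.7%, against 6.87% and 4.79%. Among 404 promoters of all genes raised by LPS alone, in the fit of all arrays, the interferon core was in 12.4%. In that set the NF-kB motif was in 58.4% and the AP-1 motif in 11.1%. A match is a description of letters and not a site of binding.

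Chemokines, which attract leukocytes, were higher with LPS in curcumin for 5 members. Of 18 tested members of a list of chemokines, 15 were higher with LPS alone, where 4.12% of all genes were higher and 1.61% lower, and 5 were higher with LPS in curcumin (Cxcl2, Cxcl10, Ccl5, Ccl4 and Ccl3), in both fits and on every scaling. None was lower. The list's median difference with curcumin was 1.25 with all arrays and 0.92 without replicate 1, against -0.09 and 0.03 for all genes tested and 3.89 for the list with LPS alone.

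Cxcl10, the ligand of Cxcr3 on activated T cells, was at -2.35, -2.22 and -2.49 in the curcumin arrays and at 5.20, 3.75 and 3.86 in the LPS+curcumin arrays. The groups were far apart, and replicate 1 was the highest array. The difference was 6.62 ± 0.35 (SE, n = 3 per group, adjusted p = 9.06e-06), a 98.5-fold difference. Without replicate 1 it was 6.16 ± 0.23 (adjusted p = 6.12e-07). LPS alone raised Cxcl10 by 8.34, and the response with curcumin was smaller by 2.18 without replicate 1 (adjusted p = 0.00245), a difference that did not pass with all arrays (adjusted p = 0.245).

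Ccl5, which attracts T cells and monocytes, measured 0.94, 0.65 and 0.69 with curcumin and 7.61, 5.94 and 6.23 with LPS and curcumin. Its difference was 5.84 ± 0.37 (adjusted p = 4.19e-05), or 5.32 ± 0.22 without replicate 1 (adjusted p = 9.46e-07), beside 7.26 with LPS alone. As for Cxcl10, the response was smaller with curcumin in the fit without replicate 1, by 1.93 (adjusted p = 0.00474), and did not pass with all arrays (adjusted p = 0.513).

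Cxcl2, which attracts neutrophils, was not well above background on any curcumin array, at -8.83, -9.12 and -8.52, and measured -0.35, -0.15 and 0.02 with LPS and curcumin. The 3 LPS+curcumin arrays lay close together. Against the lowest signal well above background, Cxcl2 was at least 82.6-fold higher (adjusted p = 7.52e-07), and at least 88.1-fold without replicate 1.

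Ccl4 and Ccl3, chemokines that macrophages secrete, showed no difference between both responses past the threshold. Ccl4 measured 3.04, 2.10 and 2.47 with curcumin and 7.03, 5.48 and 6.92 with LPS and curcumin. Its difference was 3.94 ± 0.45 (adjusted p = 0.00375), beside 3.59 with LPS alone, and the 2 responses differed by 0.35 ± 0.63 (adjusted p = 1.0). Ccl3 measured 3.69, 3.51 and 3.92 with curcumin and 6.65, 5.72 and 6.42 with LPS and curcumin. The Ccl3 difference of 2.55 ± 0.24 (adjusted p = 0.000964) stood beside 1.51 with LPS alone, and their difference of 1.04 ± 0.34 did not pass (adjusted p = 0.368). Curcumin alone left Ccl3 below its untreated values of 5.38, 5.16 and 5.48, and the LPS+curcumin arrays ended below the LPS arrays, at 6.89, 6.77 and 6.90. Ccrl2, a chemerin-binding receptor outside the list, measured -3.66, -4.65 and -4.34 with curcumin and 1.72, 0.15 and 1.22 with LPS and curcumin. Its difference was 5.25 ± 0.44 (adjusted p = 0.000417), or 4.90 without replicate 1, beside 6.30 with LPS alone.

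The remaining chemokines did not pass. Ccl2, which attracts monocytes, measured 3.29, 2.70 and 3.85 with curcumin and 5.81, 3.27 and 4.93 with LPS and curcumin, so that the groups overlapped. Its difference was 1.39 ± 0.55 (adjusted p = 0.773) with all arrays and 0.82 without replicate 1, against 3.89 with LPS alone. Without replicate 1 the Ccl2 response was smaller with curcumin (adjusted p = 0.0307), which did not pass with all arrays. Ccl12, a further monocyte attractant, measured -1.65, -2.68 and -1.72 with curcumin and -2.02, -2.93 and -1.12 with LPS and curcumin. The Ccl12 difference was -0.01 in both fits, beside 5.27 with LPS alone, and the response was smaller with curcumin in both (adjusted p = 0.00888 and 0.00513).

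**Figure D2:**
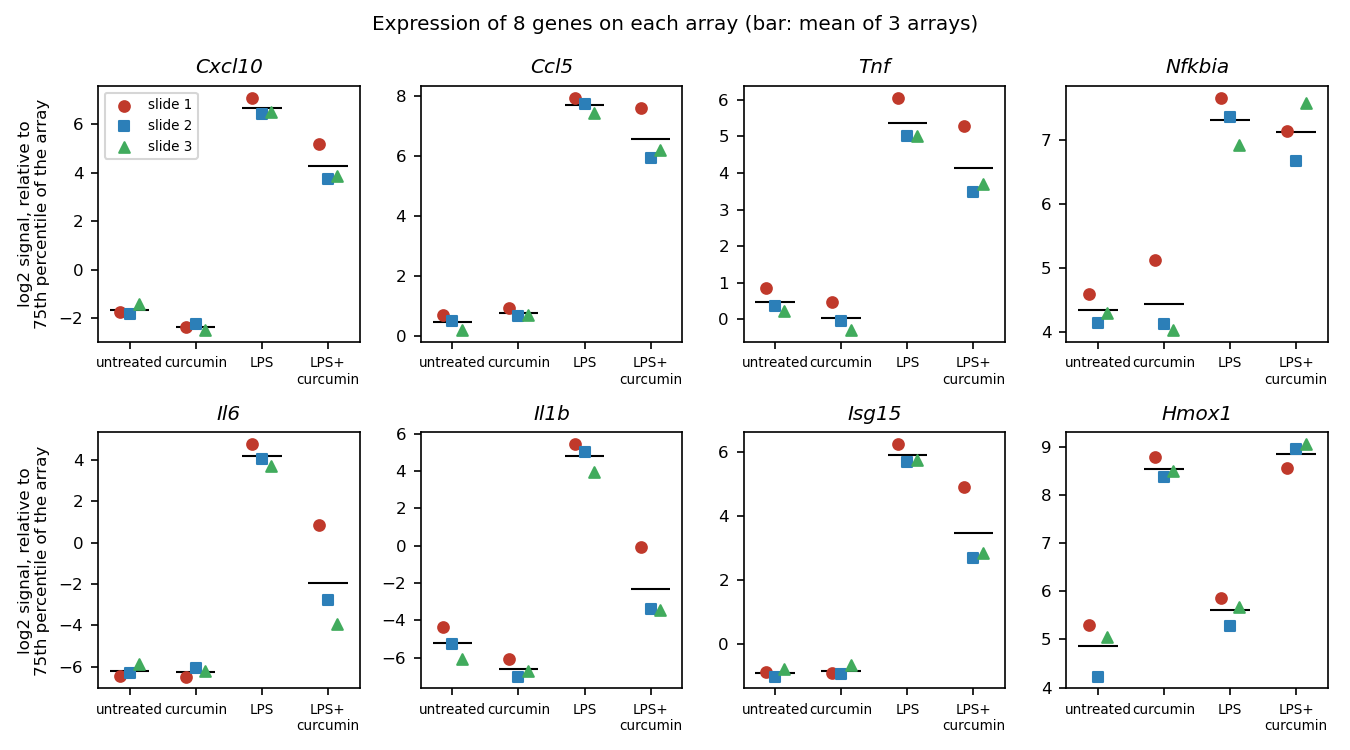
Level of 8 genes on each of the 12 arrays (vertical axis, log2 signal relative to the 75th percentile of the array), by group, with the slide as the marker and the mean of 3 arrays as the bar. In the LPS+curcumin group replicate 1 lies above the others for Cxcl10, Ccl5, Tnf, Il6, Il1b and Isg15, and not for Nfkbia or Hmox1.

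Among 24 tested inflammatory cytokines and mediators, 20 were higher with LPS alone. With curcumin, 2 were higher in the fit of all arrays (Tnf and Acod1), and 5 without replicate 1, when Il6, Il1b and Ptgs2 also passed. With the slide as a block the count was 4, with Il1b and Csf1 added. None was lower. The median difference of the list was 1.15 with all arrays and 0.42 without replicate 1, against 4.68 with LPS alone. On the 3 slides it was 2.51, 0.57 and 0.55.

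Tnf, the early cytokine of the macrophage response, measured 0.47, -0.05 and -0.29 with curcumin and 5.28, 3.48 and 3.70 with LPS and curcumin. The groups did not overlap. Its difference was 4.11 ± 0.46 (adjusted p = 0.00362), a 17.2-fold difference, and 3.55 ± 0.35 without replicate 1 (adjusted p = 0.000804). LPS alone raised Tnf by 4.88, and the 2 responses differed by -0.77 ± 0.65 with all arrays (adjusted p = 1.0) and by -1.34 without replicate 1 (adjusted p = 0.256). Acod1, the enzyme that makes itaconate, measured -1.14, -1.63 and -2.07 with curcumin and spread widely with LPS and curcumin, at 7.49, 4.61 and 2.69. The Acod1 difference was 6.54 ± 0.89 (adjusted p = 0.0135), or 5.26 ± 0.49 without replicate 1 (adjusted p = 0.000619), beside 7.39 with LPS alone.

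Il6, a cytokine of the acute-phase response, showed a wide gap between the arrays of the combined treatment. It measured -6.48, -6.07 and -6.21 with curcumin, where only 1 of 3 arrays was well above background, and 0.86, -2.76 and -3.95 with LPS and curcumin. All 3 LPS+curcumin arrays lay above all 3 curcumin arrays. The difference of 4.31 ± 0.91 did not pass with all arrays (adjusted p = 0.173), and 2.90 ± 0.38 passed without replicate 1 (adjusted p = 0.0081). LPS alone raised Il6 by 10.40, and without replicate 1 the response was smaller with curcumin by 7.50 (adjusted p = 1.07e-05). Il6 therefore passed both tests in that fit. It passed neither with all arrays, where the responses differed by -6.09 (adjusted p = 0.0665).

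Il1b, the secreted pyrogen that the inflammasome processes, measured -6.06, -7.02 and -6.71 with curcumin, again well above background on 1 array, and -0.05, -3.42 and -3.45 with LPS and curcumin. Its difference was 4.29 ± 0.82 with all arrays (adjusted p = 0.0938, or 0.013 with the slide as a block) and 3.16 ± 0.52 without replicate 1 (adjusted p = 0.0291), beside 10.03 with LPS alone. Ptgs2, the inducible cyclooxygenase, measured -5.42, -4.98 and -5.54 with curcumin and 0.17, -2.82 and -3.54 with LPS and curcumin. The difference for Ptgs2 was 3.25 (adjusted p = 0.236) with all arrays and 2.13 ± 0.34 (adjusted p = 0.028) without replicate 1, beside 5.93 with LPS alone.

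Nos2, the inducible nitric oxide synthase, was not well above background in the curcumin arrays (-8.60, -9.08 and -8.37). It was above background only on replicate 1 of LPS+curcumin (-5.36, -8.75 and -7.96). The LPS arrays were at -1.42, -2.25 and -2.41. Untreated arrays were also not well above background, so LPS alone raised Nos2 at least 41.3-fold, and no fold is given for the response with curcumin. The test of the difference between both responses, which rests on signals at background, had an adjusted p of 0.0115 with all arrays and 7.31e-06 without replicate 1. Hdc, which makes histamine, measured -0.18, 0.06 and 0.76 with curcumin alone, against -5.16, -4.57 and -5.22 untreated. With LPS and curcumin it was at -3.16, -0.20 and 0.68, which overlapped the curcumin arrays, and here replicate 1 was the low array. Its response was smaller than the 5.62 seen with LPS alone (adjusted p = 0.0141 with all arrays and 6.37e-05 without replicate 1). Csf3, the granulocyte growth factor, was likewise higher with curcumin (-4.43, -4.02 and -3.99) than untreated (-8.81, -9.38 and -9.63, not well above background). Csf3 measured -0.82, -4.37 and -3.71 with LPS and curcumin, and its response without replicate 1 was 0.11, while LPS alone raised it at least 1620-fold. The difference between both responses had an adjusted p of 5.62e-07, from a fit that takes the untreated signal at background as measured. Over the list, the response was smaller with curcumin for 6 members with all arrays and for 12 without replicate 1.

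NF-kB is a family of dimeric transcription factors held in the cytoplasm by inhibitors that it induces itself. Of 22 tested NF-kB subunits and feedback regulators, 19 were higher with LPS alone. With curcumin 4 were higher with all arrays (Traf1, Zc3h12a, Nfkbiz and Nfkbia), 5 without replicate 1, when Nfkbie was added, and 8 with the slide as a block, when Tnfaip3, Relb and Nfkb2 also passed. With the block and without replicate 1 the count was 10. The median difference was 1.26 with all arrays and 0.90 without replicate 1, against 2.47 with LPS alone. On the 3 slides it was 2.11, 1.15 and 1.04. The response was called smaller for 0 members with all arrays by limma (4 at an unadjusted p below 0.05) and for 5 without replicate 1.

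Nfkbia, the inhibitor that ends an NF-kB pulse, measured 5.14, 4.13 and 4.03 with curcumin and 7.15, 6.68 and 7.59 with LPS and curcumin. Replicate 1 was the middle array of its group. Its difference was 2.71 ± 0.34 (adjusted p = 0.00761), or 2.70 ± 0.38 without replicate 1 (adjusted p = 0.0122), beside 2.98 with LPS alone. The 2 responses differed by -0.27 ± 0.48 (adjusted p = 1.0). Nfkbiz, a nuclear cofactor for secondary response genes, measured -2.01, -2.29 and -2.58 with curcumin and 2.14, 1.03 and 0.73 with LPS and curcumin. The Nfkbiz difference was 3.59 ± 0.32 (adjusted p = 0.000657), or 3.18 without replicate 1, where it was smaller than the response to LPS alone of 4.77 (adjusted p = 0.0132). With all arrays the Nfkbiz responses did not differ by the test (adjusted p = 0.568).

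Zc3h12a, an endonuclease that degrades cytokine mRNA, was at -5.97, -5.51 and -6.37 with curcumin, well above background on 2 of 3 arrays, and at -1.89, -2.43 and -2.65 with LPS and curcumin. It differed by 3.63 ± 0.31 (adjusted p = 0.000417), or 3.41 without replicate 1, beside 4.43 with LPS alone. Traf1, an adaptor of TNF receptors, measured -4.05, -4.19 and -3.96 with curcumin and 3.58, 0.28 and -0.16 with LPS and curcumin. Here replicate 1 stood far above the others. The difference was 5.30 ± 0.76 (adjusted p = 0.0178), or 4.12 ± 0.29 without replicate 1, when it was smaller than the 9.56 seen with LPS alone (adjusted p = 1.79e-05). With all arrays the Traf1 responses did not differ by the test (adjusted p = 0.146). Tnfaip3, a deubiquitinase that restrains NF-kB, did not pass without the block, with a difference of 3.28 (adjusted p = 0.366) and 2.14 without replicate 1 (adjusted p = 0.189). With the block the adjusted p was 0.0385 and 0.00505. The subunit Rela had a difference of 0.43 with curcumin and 0.47 with LPS alone, neither of which passed.

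Immediate early genes and phosphatases encode short-lived transcription factors and the enzymes that switch off MAP kinases. Of 31 tested, 13 were higher and 1 lower with LPS alone, and with curcumin 2 were higher with all arrays (Maff and Ier3) and 3 without replicate 1, when Dusp8 was added. Maff, a small Maf factor, measured 0.63, 0.75 and 0.83 with curcumin and 2.13, 2.18 and 2.65 with LPS and curcumin. Its difference was 1.58 ± 0.23 (adjusted p = 0.0201), beside 1.84 with LPS alone. Ier3 measured 1.53, 0.82 and 0.89 with curcumin and 2.44, 2.47 and 2.98 with LPS and curcumin, a difference of 1.55 ± 0.25 (adjusted p = 0.0369). For neither gene was replicate 1 high. Dusp8, a phosphatase of the stress kinases, measured -4.02, -4.54 and -3.74 with curcumin and -4.49, -2.26 and -1.80 with LPS and curcumin. Replicate 1 lay within the curcumin range, and the difference was 1.25 (adjusted p = 0.84) with all arrays and 2.08 (adjusted p = 0.0111) without it. The list's median difference was 0.67 with all arrays and 0.56 without replicate 1, beside 0.94 with LPS alone. The block without replicate 1 gave 7 higher members.

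**Figure D3:**
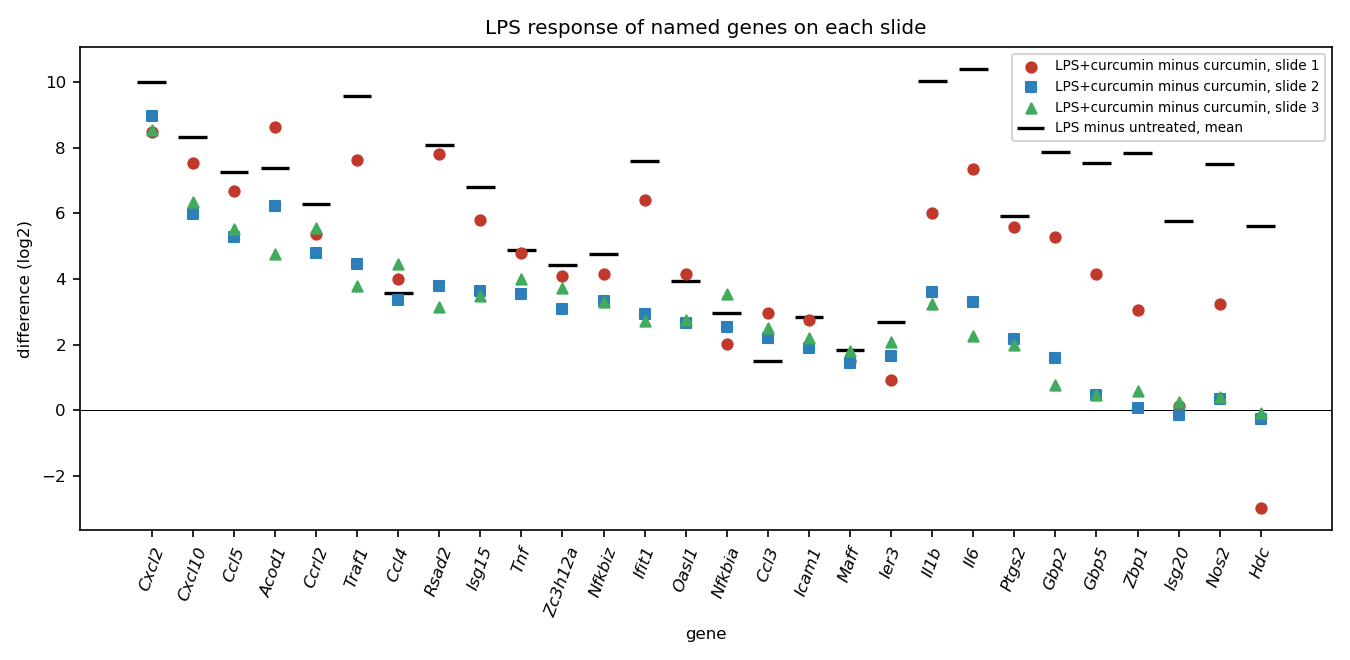
Response to LPS in curcumin on each slide (markers: LPS+curcumin minus curcumin, log2) for 28 named genes, with the mean response to LPS alone as a bar. The 3 slides lie close together for Cxcl2 and Maff, whereas slide 1 lies above slides 2 and 3 for Traf1, Rsad2, Ifit1, Il6, Gbp2 and Gbp5.

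Interferon-stimulated genes make up the second arm of the response. Of 43 tested antiviral members, 42 were higher with LPS alone, with a median of 4.20. With curcumin 4 were higher with all arrays (Isg15, Oasl1, Ifit1 and Rsad2), and 7 without replicate 1, when Ifit3, Rtp4 and Slfn2 were added. None was lower. The median difference was 1.08 with all arrays and 0.18 without replicate 1, and spike-in scaling turned the latter to -0.08. By slide the median was 2.60, 0.21 and 0.29. The response was smaller with curcumin for 11 of the 43 with all arrays and for 38 without replicate 1.

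Isg15, a ubiquitin-like protein joined to targets during infection, measured -0.89, -0.95 and -0.64 with curcumin and 4.90, 2.71 and 2.84 with LPS and curcumin. Its difference was 4.31 ± 0.47 (adjusted p = 0.00294), or 3.60 ± 0.21 without replicate 1 (adjusted p = 1.27e-05). That was smaller than the 6.80 seen with LPS alone in the fit without replicate 1 (adjusted p = 7.5e-05). With all arrays the difference between the Isg15 responses did not pass (adjusted p = 0.181). Oasl1, which represses translation of Irf7, measured 2.30, 2.42 and 2.53 with curcumin and 6.45, 5.07 and 5.27 with LPS and curcumin. The Oasl1 difference was 3.19 ± 0.33 (adjusted p = 0.00193), or 2.76 without replicate 1, beside 3.94 with LPS alone, and the responses did not differ by the test in either fit.

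Rsad2, which makes a chain-terminating nucleotide, measured -3.14, -2.51 and -2.81 with curcumin and 4.66, 1.27 and 0.34 with LPS and curcumin. The difference was 4.91 ± 0.82 (adjusted p = 0.0464), or 3.62 ± 0.31 without replicate 1 (adjusted p = 0.00035). Ifit1, which binds viral RNA, measured -4.82, -4.37 and -4.34 with curcumin and 1.58, -1.44 and -1.61 with LPS and curcumin. It differed by 4.02 ± 0.66 (adjusted p = 0.042), or 2.98 ± 0.24 without replicate 1 (adjusted p = 0.000203). For both genes all LPS+curcumin arrays were above all curcumin arrays, and replicate 1 was the highest array. Both responses were smaller than those to LPS alone, of 8.08 and 7.60, in the fit without replicate 1 (adjusted p = 0.000133 and 1.39e-05). Neither difference between responses passed with all arrays (adjusted p = 0.51 and 0.172).

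Other antiviral genes showed no call with curcumin. Isg20, an exonuclease, measured -0.62, -0.45 and -0.09 with curcumin and -0.48, -0.58 and 0.16 with LPS and curcumin, and replicate 1 lay within its group. The curcumin arrays themselves lay above the untreated values of -2.71, -3.04 and -2.97. The Isg20 difference was 0.09 ± 0.24 (adjusted p = 0.96), against 5.78 with LPS alone, and the responses differed by -5.69 ± 0.33 (adjusted p = 4.87e-05). Zbp1, a sensor of Z-form nucleic acid, measured -5.78, -5.91 and -5.69 with curcumin and -2.74, -5.84 and -5.09 with LPS and curcumin, so that only replicate 1 stood clear of the curcumin range by more than 1. Its response was smaller by 6.61 (adjusted p = 0.00371). Ddx58 (RIG-I) and Dhx58, sensors of viral RNA, had smaller responses in both fits, by 4.18 and 3.58 with all arrays (adjusted p = 0.00739 and 0.0026).

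Apol9b, an interferon-induced apolipoprotein L, measured -3.74, -3.25 and -3.38 with curcumin and 0.61, -2.70 and -2.71 with LPS and curcumin. Its difference was 1.85 ± 0.69 (adjusted p = 0.727), or 0.75 without replicate 1, against 7.21 with LPS alone, and the response was smaller in both fits (adjusted p = 0.0345 and 8.48e-07). Xaf1, an interferon-induced antagonist of apoptosis inhibitors, measured -1.85, -2.12 and -1.84 with curcumin and 1.19, -1.91 and -1.78 with LPS and curcumin. The Xaf1 response without replicate 1 was 0.09, against 5.34 with LPS alone, and was smaller in that fit (adjusted p = 1.2e-06) but did not pass with all arrays (adjusted p = 0.0664, or 0.0469 with the slide as a block).

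The interferon-inducible GTPases, which attack vacuoles that hold microbes, also differed between slide 1 and the other slides. Of 10 tested, 9 were higher with LPS alone (median 5.88) and 0 were higher with LPS in curcumin by limma in either fit (5 and 3 at an unadjusted p below 0.05). Only 0.202% and 0.305% of all genes were higher in these fits, so that 0 does not set the GTPases apart. Their median with curcumin was 1.65 with all arrays and 0.51 without replicate 1, and 3.87, 0.72 and 0.45 by slide. The response was smaller for 3 with all arrays and for 9 without replicate 1. Gbp5 measured -5.08, -4.47 and -4.56 with curcumin and -0.93, -4.00 and -4.10 with LPS and curcumin. Its response was smaller by 5.83 (adjusted p = 0.0211) with all arrays and by 6.88 (adjusted p = 9.73e-06) without replicate 1. Gbp2 measured -3.16, -3.09 and -3.21 with curcumin and 2.13, -1.51 and -2.43 with LPS and curcumin, above the curcumin arrays throughout, with a difference of 2.55 (adjusted p = 0.635) and 1.19 without replicate 1 (adjusted p = 0.11).

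Among 21 tested genes of interferon signalling, 12 were higher with LPS alone and 0 with LPS in curcumin by limma in either fit (2 and 1 at an unadjusted p below 0.05). With 0.202% and 0.305% of all genes higher in these fits, that 0 does not set the list apart. The list's median was 0.25 with all arrays and 0.01 without replicate 1, which spike-in scaling turned to -0.25. Irf7, the factor that amplifies type I interferon, measured -1.30, -1.32 and -1.35 with curcumin and 0.71, -1.60 and -1.32 with LPS and curcumin. Its response was smaller in both fits, by 4.59 with all arrays (adjusted p = 0.00805) and by 5.32 without replicate 1 (adjusted p = 1.27e-06). Ifnb1, interferon beta itself, was at -4.93, -5.54 and -4.86 with curcumin and at -3.47, -4.93 and -2.98 with LPS and curcumin. The Ifnb1 difference of 1.32 (adjusted p = 0.869) stood beside 5.94 with LPS alone, and the response was smaller without replicate 1 (adjusted p = 0.0334) and not with all arrays (adjusted p = 0.0601, or 0.0402 with the slide as a block). Untreated cells were well above background for Ifnb1 on 1 of 3 arrays. Batf2, an interferon-induced transcription factor outside the list, measured -6.11, -5.61 and -5.61 with curcumin and -2.23, -5.45 and -5.32 with LPS and curcumin, and its response was smaller by 6.18 (adjusted p = 0.0169).

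**Figure D4:**
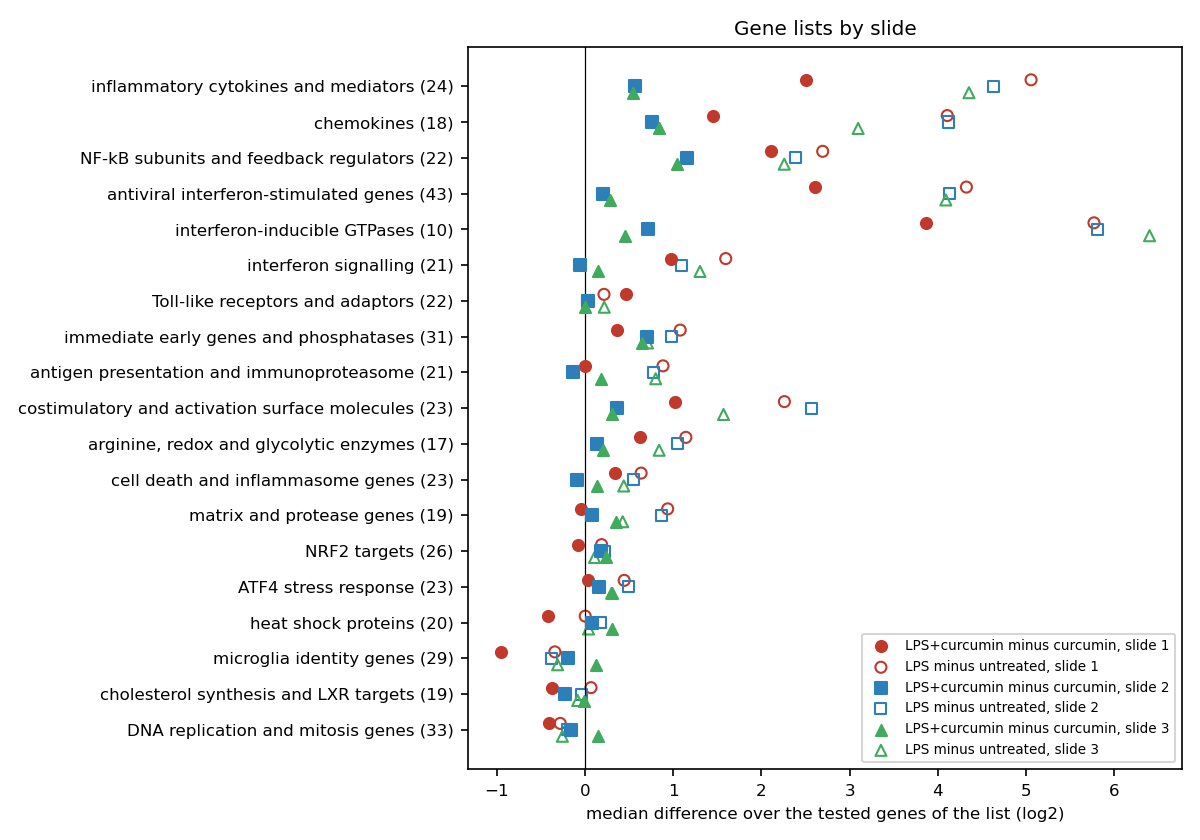
Median difference (log2) over the tested genes of each list on each slide, for LPS+curcumin minus curcumin (filled) and LPS minus untreated (open), with the number of tested genes in brackets. For the GTPases slide 1 gave 3.87 with curcumin against 0.72 and 0.45 on slides 2 and 3, while the immediate early genes gave 0.37, 0.70 and 0.65.

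Of 21 tested genes of antigen presentation and the immunoproteasome, 10 were higher with LPS alone and 0 with LPS in curcumin by limma in either fit (0 in both at an unadjusted p below 0.05), with medians of 0.83 and of -0.03 and 0.05 in the fits with and without replicate 1. The shares of all genes called higher in these fits were 0.202% and 0.305%, so the 0 called members do not set this list apart. Tap1, a peptide transporter, measured -0.06, -0.53 and -0.36 with curcumin and 0.68, -1.03 and -0.78 with LPS and curcumin. Its response without replicate 1 was -0.58 against 2.35 with LPS alone, and was smaller with curcumin (adjusted p = 0.000759). With all arrays the Tap1 responses did not differ by the test (adjusted p = 0.111). Of 23 costimulatory and activation surface molecules, 16 were higher with LPS alone and 1, Icam1, with LPS in curcumin in both fits. With the slide as a block Cd83 passed as well, and without replicate 1 the block gave 3. Icam1, the adhesion molecule that leukocyte integrins bind, measured -0.50, -0.59 and -0.83 with curcumin and 2.26, 1.30 and 1.37 with LPS and curcumin, a difference of 2.28 ± 0.30 (adjusted p = 0.012) beside 2.86 with LPS alone.

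Genes outside the lists also passed the test with curcumin. Edn1, which encodes the vasoconstrictor endothelin-1, was the 1 gene of the 717 to pass both tests with all arrays, against 19 of 923 without replicate 1. It measured -5.87, -5.98 and -6.17 with curcumin, well above background on 2 of 3 arrays, and -4.45, -3.81 and -3.09 with LPS and curcumin, where replicate 1 was the lowest array. Its difference was 2.22 ± 0.33 (adjusted p = 0.021), or 2.55 ± 0.28 without replicate 1 (adjusted p = 0.00236), against 6.33 with LPS alone, and the response was smaller in both fits (adjusted p = 0.00157 and 0.000226). Rab11fip1, an effector of Rab11 in endosome recycling, measured -0.55, 0.13 and -0.13 with curcumin and 2.87, 2.18 and 1.66 with LPS and curcumin. The Rab11fip1 difference was 2.42 ± 0.30 (adjusted p = 0.00761), beside 2.42 with LPS alone. Heatr9 was not well above background in untreated or curcumin arrays, and measured -5.67, -4.20 and -4.16 with LPS and curcumin. Heatr9 was at least 3.60-fold higher than with curcumin (adjusted p = 0.00193), and at least 5.09-fold without replicate 1. Adh7, an alcohol dehydrogenase, was likewise measured only with LPS and curcumin on all 3 arrays, at -2.78, -5.08 and -5.37, and at least 4.33-fold higher than with curcumin, or at least 2.46-fold without replicate 1, but did not pass in either fit (adjusted p = 0.213 and 0.154). Replicate 1 was the highest array for Adh7 and the lowest for Heatr9. Both genes entered the test only because all 3 LPS+curcumin arrays were well above background. That is the group where they are high, so their p-values are a description.

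Several complement and acute-phase genes were no higher with LPS in curcumin by the test. C3 measured 3.54, 3.00 and 3.09 with curcumin and 3.97, 2.36 and 3.10 with LPS and curcumin, so that the groups overlapped, whereas LPS alone raised it by 2.85. Its response was smaller without replicate 1 (adjusted p = 0.00395) and did not pass with all arrays (adjusted p = 0.0566, or 0.005 with the slide as a block). Cfb, a protease of the alternative complement pathway, had no value on LPS+curcumin replicate 2, where its spot was an outlier. It measured -4.93, -4.94 and -4.68 with curcumin and -1.59 and -6.00 with LPS and curcumin, on either side of the curcumin range, and its response was smaller by 6.93 (adjusted p = 0.0452). Without replicate 1 a single LPS+curcumin array is left for Cfb. Haptoglobin (Hp) measured 1.95, 1.35 and 1.15 with curcumin and 1.56, 0.70 and 0.78 with LPS and curcumin, and ceruloplasmin (Cp) -2.78, -3.53 and -3.34 and -2.40, -4.26 and -4.03. Their responses were -0.47 and -0.35 with curcumin against 3.06 and 3.51 with LPS alone, and both were smaller in both fits (adjusted p = 0.0496 and 0.0386 with all arrays). Saa3, an acute-phase apolipoprotein, measured 1.35, 0.77 and 0.63 with curcumin and 5.40, 1.44 and 1.67 with LPS and curcumin, a response of 1.92 with all arrays (adjusted p = 0.842) and 0.64 without replicate 1, against 6.89.

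Other genes outside the interferon lists were not higher with LPS in curcumin by the test. Mmp13, a collagenase, measured -3.29, -3.51 and -3.01 with curcumin and -1.37, -3.43 and -2.94 with LPS and curcumin. The Mmp13 response was smaller than the 5.36 seen with LPS alone in both fits (adjusted p = 0.0168 and 0.000554). Cd38, an enzyme that consumes NAD, measured -2.83, -3.18 and -2.71 with curcumin and -3.33, -3.38 and -2.59 with LPS and curcumin. The groups overlapped, the difference was -0.19 (adjusted p = 0.945), and the response was smaller than the 2.82 seen with LPS alone in both fits (adjusted p = 0.0332 and 0.0223). Il1rn, the secreted antagonist of the interleukin-1 receptor, measured -1.15, -0.79 and 0.66 with curcumin and 1.01, -0.44 and 0.59 with LPS and curcumin. The Il1rn response was smaller than the 4.48 seen with LPS alone in both fits (adjusted p = 0.0367 and 0.00851). Marco, a scavenger receptor, had no value on LPS+curcumin replicate 2, and measured 2.08, 1.42 and 0.85 with curcumin and 2.30 and 0.96 with LPS and curcumin. The Marco response was smaller than the 4.58 with LPS alone without replicate 1 (adjusted p = 0.0256), which leaves 1 LPS+curcumin value, and did not pass with all arrays (adjusted p = 0.0772). In that fit the lone array is assumed to vary like the other groups. The Marco difference passed with the slide as a block and all arrays (adjusted p = 0.00195).

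Few genes of any kind passed as lower with LPS in curcumin, 0.0104% of those tested with all arrays and 0.0414% without replicate 1. LPS alone lowered 232 genes at least 2-fold (1.2% of those tested), with a median of -1.48. Of these, 0 passed as lower in LPS+curcumin versus curcumin by limma with all arrays (67 at an unadjusted p below 0.05). Their median there was -0.46, and 214 of the 232 had a difference of the same sign. Without replicate 1, 1 of 359 (1.86% of those tested) passed, Cxcr2, with medians of -1.36 and -0.37. In that fit 297 of the 359 had a difference of the same sign. A count of 0 or 1 is too small to set the lowered genes apart from all genes. At an adjusted p below 0.05 the test of the difference called 4 of the 232 and 34 of the 359 smaller in size. St6gal1, a sialyltransferase, measured 0.03, -0.34 and -0.76 with curcumin and -1.25, -1.01 and -1.38 with LPS and curcumin, the latter all lower. Its response was -0.85 ± 0.28 (adjusted p = 0.609) against -2.95 with LPS alone, a difference of 2.10 (adjusted p = 0.0369). Fhod1, a formin of the actin skeleton, measured 2.60, 2.41 and 2.30 with curcumin and 2.24, 2.22 and 2.43 with LPS and curcumin, and its responses differed by 1.29 (adjusted p = 0.0452, or 0.0506 with the slide as a block). Foxo6, a forkhead factor, measured -4.62, -4.51 and -5.18 with curcumin and -6.26, -5.17 and -5.37 with LPS and curcumin. Its response was -0.83 with all arrays and -0.50 without replicate 1, against -2.88 with LPS alone, and differed without replicate 1 (adjusted p = 0.00271) and not with all arrays (adjusted p = 0.0664, or 0.0469 with the slide as a block). The chemokine receptor Cxcr2 measured -3.48, -3.64 and -3.55 with curcumin and -6.93, -4.86 and -4.55 with LPS and curcumin, where 2 of 3 arrays were well above background. It differed by -1.89 (adjusted p = 0.366) with all arrays and -1.15 ± 0.21 (adjusted p = 0.0495) without replicate 1, and with the slide as a block in that fit it did not pass (adjusted p = 0.0633).

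Some genes were higher with LPS in curcumin although LPS alone had not raised them at least 2-fold, 3 with all arrays and 9 without replicate 1. Zswim4, the one with a symbol among the 3, measured -3.60, -3.65 and -3.52 with curcumin and -2.48, -2.32 and -2.54 with LPS and curcumin, a difference of 1.14 ± 0.19 (adjusted p = 0.0464) beside 0.98 with LPS alone. Hspa1b and Matn4 were among the 9. Hspa1a and Hspa1b, the inducible heat shock proteins of the Hsp70 family, lie next to each other and are nearly identical, so their probes may share signal. Hspa1a measured -3.16, -3.71 and -2.77 with curcumin and -4.78, -1.04 and -0.35 with LPS and curcumin. Replicate 1 was below the curcumin arrays and the others above them, and the difference was 1.16 (adjusted p = 0.875) with all arrays and 2.52 ± 0.34 (adjusted p = 0.0102) without replicate 1. For Hspa1b the difference was 1.05 (adjusted p = 0.869) and 2.02 ± 0.30 (adjusted p = 0.0176). Neither gene was well above background on an untreated or LPS array, so there is no measured response to LPS alone for them. Matn4, a matrix protein, measured -4.13, -5.18 and -4.92 with curcumin and -4.20, -1.43 and -0.89 with LPS and curcumin, a difference of 2.57 (adjusted p = 0.52), or 3.59 ± 0.51 (adjusted p = 0.0127) without replicate 1. Matn4 was not well above background on any untreated array and on only 1 LPS array. Of the 9 genes, 2 had a larger response with curcumin by the test of the difference without replicate 1, Hydin (adjusted p = 0.023) and a transcript without a symbol. Hydin, which encodes a protein of motile cilia, measured -5.00, -4.48 and -4.51 with curcumin. It measured -5.78, -2.93 and -3.50 with LPS and curcumin, with replicate 1 below the curcumin arrays. Ercc5, a nuclease of DNA repair, was the only gene with a symbol that was lower in both fits. It measured -0.89, -0.77 and -0.90 with curcumin and -2.54, -2.22 and -2.02 with LPS and curcumin, a difference of -1.41 ± 0.20 (adjusted p = 0.0173) and -1.27 without replicate 1 (adjusted p = 0.0179). LPS alone gave -0.56 (adjusted p = 0.16). Ercc5 was called lower on 3 of 5 scalings with all arrays and on 5 of 5 without LPS+curcumin replicate 1. Its call was lost when curcumin replicate 1 or curcumin replicate 2 was left out, where 0 genes were lower.

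Toll-like receptors and the antioxidant response showed no call without the block. Of all genes tested, only 0.202% were higher with LPS in curcumin with all arrays, and 0.305% without replicate 1. At these shares a list of this size need hold no called member, so a count of 0 does not set it apart. Of 22 tested Toll-like receptors and adaptors, 0 passed with curcumin by limma in either fit (5 and 2 higher, 0 and 2 lower, at an unadjusted p below 0.05), and 3 were higher with LPS alone. Tlr4, the receptor for LPS, measured -1.77, -1.92 and -2.70 with curcumin and -1.07, -1.91 and -2.97 with LPS and curcumin, so the groups overlapped. The curcumin arrays were below the untreated values of 0.33, 0.14 and -0.10. Tlr2, a receptor of bacterial lipoproteins, measured 2.17, 1.23 and 0.41 with curcumin and 5.68, 2.59 and 1.89 with LPS and curcumin, a difference of 2.12 (adjusted p = 0.765), or 0.97 without replicate 1 (adjusted p = 0.576). LPS+curcumin was above curcumin on each slide, and with the slide as a block and without replicate 1 Tlr2 passed at 1.33 (adjusted p = 0.0192). Among 26 NRF2 targets, genes of the antioxidant response, 0 passed with curcumin by limma in either fit (6 and 3 higher at an unadjusted p below 0.05). Hmox1 was at 8.78, 8.37 and 8.49 with curcumin, and adding LPS gave a difference of 0.31 (adjusted p = 0.891). Nqo1, a quinone reductase of the same list, measured -3.15, -2.36 and -2.27 with curcumin and -1.81, -2.45 and -2.43 with LPS and curcumin, a difference of 0.36 (adjusted p = 0.911). Arginase Arg1 had overlapping groups as well, at -3.99, -5.12 and -5.99 and at -6.35, -5.77 and -5.33. Lists of 23 ATF4 targets, 29 microglia identity genes, 19 cholesterol genes, 33 DNA replication genes, 19 matrix genes and 23 cell death genes held 0 called members by limma in both fits. With all arrays, at an unadjusted p below 0.05, 6 matrix genes were higher and 1 lower, and 5 cell death genes were higher and 1 lower. Of the microglia identity genes, 0 were higher and 5 lower at that threshold. The share of all tested genes at an unadjusted p below 0.05 is not given here. Such counts, here and above, are therefore a description and cannot be set against that share. With the slide as a block, Nlrp3 and Casp4 of the cell death list passed as higher in both fits, and Cxcr4 of the microglia identity list passed as lower in both.

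Leaving out single arrays moved the counts. Of 21 named genes called with all arrays, 12 kept their call whichever single array was left out (Cxcl10, Ccl5, Ccrl2, Isg15, Tnf, Ccl4, Zc3h12a, Nfkbiz, Cxcl2, Heatr9, Ccl3 and Oasl1). Among these, Heatr9 entered the test only through the LPS+curcumin arrays, so its call is a description. Leaving out curcumin replicate 3 lowered the count of higher genes to 13, and leaving out LPS+curcumin replicate 3 raised it to 107.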

How the data were processed

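Spot intensities were deposited by the authors as 1-colour Agilent scanner output, 1 file per array (Feature Extraction 10.5.1.1 per the file headers, but 9.1 per the submitters' processing notes). The scanner software's processed signal is background-corrected intensity per the file headers, and no normalization between arrays was applied to it here before scaling. Log2 values in the text were computed from these deposited intensities by taking log2 of the processed signal and subtracting the 75th percentile of the array. The value table of the authors' deposited values matched the processed signal within 0.397%. Control and outlier spots were left out, and spots of a probe were averaged. A gene was represented by its probe of highest mean signal among probes that all 3 arrays of some group showed well above background. Names came from RefSeq (GRCm38.p6) by accession.

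Of 41174 probes, 25097 had a symbol. Precision is limited by 3 arrays per group. Linear models with 4 group means were fitted in limma 3.58.1 (R 4.3.3), without a block, with Benjamini-Hochberg adjustment over all 19323 genes and transcripts, and repeated without LPS+curcumin replicate 1. The response with curcumin and that without it share no arrays. Both tests do share 1 estimate of each gene's spread from all groups, so passing them is not independent. With both groups fitted alone, 6 of 959 LPS-induced genes were also higher with curcumin. The model was tested on simulated data with independent noise around the group means. Those data held no correlation within slides and no array that stood apart, so they do not test the fits for either.

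Replicate number equals slide in the file headers. Deviations of same-numbered LPS+curcumin and curcumin arrays from their group means correlated at 0.503, 0.37 and 0.711. For LPS and untreated arrays the values were 0.568, 0.237 and 0.526, and for curcumin and untreated arrays 0.567, 0.213 and 0.334. For LPS+curcumin and LPS arrays they were only 0.173, 0.114 and -0.02. The numbers thus pair the arrays unevenly, and differently numbered arrays were not compared. The main fit did not use this pairing. A fit with the slide as a block over all 4 groups was an alternative, and it called more genes in each direction. Others were scaling to the median, quantiles, 7 spike-in probes or commonly detected probes, normexp background correction (offset 50, median signals), stricter filtering, probe averaging, a fit of both groups alone, and leaving out arrays.

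Named genes were the 12 highest and 12 lowest called differences with arrays that did not overlap, the 3 highest bounds per direction, the 10 most and 10 least retained LPS-induced genes, the 8 highest and 8 lowest differences between responses, up to 4 called members per list and a fixed set of inflammatory and stress genes. Other genes, such as Csf3, Xaf1, Irf7, Ifnb1, Rela, Tnfaip3, Ddx58, Dhx58, Mmp13, Cd38, Il1rn, Edn1 and Rab11fip1, were named after their values were seen. The comparison and the gene lists were chosen with earlier results of these data known. For a gene not well above background in 1 group, "at least" folds use the lowest signal well above background on each array of that group, or the gene's own signal where higher.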

Additional observations from a re-analysis of the deposited data

Results flagged for a closer look

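For 13 named genes the response to LPS with curcumin differed from that without it by limma's test of the difference, with all 12 arrays. Among complement, acute-phase and metabolic genes the difference in log2 response was -3.53 for Hp (adjusted p = 0.0496), -3.86 for Cp (adjusted p = 0.0386), -6.93 for Cfb (adjusted p = 0.0452) and -6.72 for Hdc (adjusted p = 0.0141). For Nos2 the fit gave -6.19 (adjusted p = 0.0115), but no untreated or curcumin array was well above background, so that this is a difference of signals at background and not a measured size. Among interferon-stimulated genes and chemokines it was -6.61 for Zbp1 (adjusted p = 0.00371), -6.18 for Batf2 (adjusted p = 0.0169), -5.83 for Gbp5 (adjusted p = 0.0211), -5.69 for Isg20 (adjusted p = 4.87e-05), -5.36 for Apol9b (adjusted p = 0.0345) and -5.28 for Ccl12 (adjusted p = 0.00888). LPS lowered St6gal1 and Fhod1 less with curcumin than without it, by 2.10 (adjusted p = 0.0369) and 1.29 (adjusted p = 0.0452, or 0.0506 with the slide as a block). Hdc and Isg20 stood at means of 0.21 and -0.39 with curcumin alone, against -4.98 and -2.91 in untreated cells. All 13 differences kept their sign without LPS+curcumin replicate 1. Cfb then had a single LPS+curcumin value, and the other genes passed. That fit reuses the remaining arrays, and most of these genes were named for their difference in the same data. Passing again is therefore not a separate check.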

How the results depend on the processing

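With all arrays, 39 genes were higher and 2 lower in LPS+curcumin versus curcumin. Of the LPS-induced genes, 36 were also higher and 137 had a smaller response, and 0 LPS-lowered genes were also lower. The LPS-induced set, 717 genes here, and the LPS-lowered set were chosen anew under each setting, so counts within them have different bases. The LPS-induced set held 441 genes with median, 564 with quantile and 356 with spike-in scaling, and 435 with normexp. With the block it held 842, or 1017 without replicate 1. Median scaling gave 22 higher, 19 also higher and 68 smaller. Quantile scaling gave 6 lower, 1 also lower and 83 smaller. Spike-in scaling gave 19 higher, 1 lower, 18 also higher and 52 smaller. Normexp correction gave 5 lower, 19 also higher, 1 also lower and 89 smaller. Requiring signal above background on all arrays gave 2 also lower and 74 smaller, and averaging probes gave 4 lower and 1 also lower. With the slide as a replicate block the pairing gave 62 higher, 6 lower, 57 also higher, 3 also lower and 213 smaller. Fitting both groups alone gave 6 higher, 0 lower and 6 also higher. Without LPS+curcumin replicate 1, the block gave 110 higher, 11 lower, 87 also higher, 2 also lower and 487 smaller, quantile scaling 71 higher, 30 lower, 5 also lower and 377 smaller, and spike-in scaling 5 lower and 337 smaller. Leaving out all 4 arrays of slide 1 gave 1 lower and 262 of 732 LPS-induced genes smaller. Without slide 2 there were 4 higher and 0 lower, and of 190 LPS-induced genes 4 were also higher and 0 smaller. Without slide 3 there were 3 higher, and of 415 LPS-induced genes 3 were also higher and 37 smaller. Leaving out 1 array gave 13 (without curcumin replicate 3) to 107 (without LPS+curcumin replicate 3) higher, 0 (without curcumin replicate 1) to 98 (without LPS+curcumin replicate 3) lower, 13 to 84 also higher, 0 (without untreated replicate 1) to 11 also lower, and 77 (without untreated replicate 3) to 383 (without LPS+curcumin replicate 1) smaller. The causes were not tested. Over the alternatives, the 21 named genes with a call gave 497 values that kept it, 130 that lost it and 0 reversed. Depth is limited by signal over background: genes below it in a group have only a bound.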
